A study of Mus musculus with 4 samples.

Results

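The layout of histone H3 trimethylated at lysine 4 (H3K4me3) against H3 trimethylated at lysine 27 (H3K27me3) was measured in MEF, which are fibroblasts of the mouse embryo kept in culture. Chromatin immunoprecipitation with sequencing (ChIP-seq) recovers and counts DNA fragments bound to a modified histone. Among the 4 libraries of the study, the 2 that carry these marks in MEF were taken. Both came from MEF cultured in DMEM with serum, with antibodies from the same vendor, and from the same flow cell. The heterochromatin mark H3K9me3, from MEF on the same flow cell and from secondary MEF on another, was measured the same way beside them. Secondary MEF were harvested from chimeric embryos made with induced pluripotent stem cells, were selected with puromycin, and hold doxycycline-inducible Klf4, Sox2 and Oct4. Each group was 1 library, so no value below has a replicate check, and every statement is about these libraries.

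H3K4me3 is written by the MLL and SET1 (COMPASS) complexes at the promoters of active and poised genes, and it usually forms short, high peaks around transcription start sites. H3K27me3 is written by Polycomb repressive complex 2 (PRC2) and marks silenced developmental genes, often in broader domains that follow CpG-rich DNA. Promoters that carry both are called bivalent and are known best from embryonic stem cells, although they also occur in fibroblasts. H3K4me3 on the same histone tail inhibits PRC2, and the methods used here average over cells, alleles and nucleosomes, so reads of both marks in a bin do not place both on the same nucleosome.

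Reads with a single genome location were kept once per position and strand, moved 75 bp towards the fragment centre and counted in 500 bp bins on the 19 autosomes of mouse build mm8. A level is the fold over a library's own mean per bin, over 3984987 bins with a read in any library. A bin of 10-fold or more is called strong here, and adjacent strong bins form a run. The H3K4me3 library held 10989113 such reads (mean 2.76 a bin), H3K27me3 8963279 (2.25), MEF H3K9me3 8533453 (2.14) and secondary MEF H3K9me3 7678116 (1.93). A strong bin therefore rests on at least 28 reads of H3K4me3 or 23 of H3K27me3. Strong H3K4me3 took 51770 bins and 45.5% of that library's reads, while strong H3K27me3 took 14792 bins and 5.90% of its reads. Intervals are at the 95% level and cover counting error only, since reads amplified by PCR without molecular identifiers are not independent molecules. An interval of a share of bins treats bins as independent. The 14792 strong H3K27me3 bins lay in 7547 runs, so such intervals can be too narrow. Bins of 5-fold or more in all 4 libraries numbered 2048, and they made up 2.81% of the strong H3K4me3 bins, 10.8% of the strong H3K27me3 bins and 31.9% of the bins strong for both. The main results that rest on them are given with and without them, and leaving them out also removes bins by their H3K27me3 level. No mm8 annotation was used, so positions stand without gene names and the fibroblast label was not checked against marker genes.

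Strong H3K4me3 and strong H3K27me3 often fell in the same bins. Both marks were strong in 3437 bins, against 192 if the bins of either mark were placed without regard to the other (the product of their frequencies), a ratio of 17.9. These shared bins were 6.64% of the strong H3K4me3 bins, where strong H3K27me3 took 0.371% of all bins. They were 23.2% of the strong H3K27me3 bins, where strong H3K4me3 took 1.3% of all bins. Without the bins high in all 4 libraries, 2340 shared bins stood against 167, a ratio of 14.0. The product is a reference for the size of the overlap and not a test. The ratio was 2.89 at a threshold of 2-fold in both marks (96462 bins), 7.30 at 5-fold (11403 bins, where 2.23% of all bins reached that level for H3K4me3 and 1.76% for H3K27me3) and 20.5 at 20-fold (474 bins). Without the bins high in all 4 libraries the ratio at 20-fold was 12.7, with 197 bins, so the increase from 10-fold to 20-fold was not seen without them.

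Bins with a high level of either mark and little of the other were fewer than the product of the class sizes in both directions, more so for high H3K27me3 with little H3K4me3. Bins with H3K27me3 between 20-fold and 40-fold and H3K4me3 under 0.5-fold numbered 29, against 1831 for the product of the class sizes. Of the 22 bins of 40-fold H3K27me3 or more outside those high in all 4 libraries, 0 had H3K4me3 under 2-fold. An approximate limit of 3 counts, not a Clopper-Pearson interval, allows a share of up to 13.6%. In the other direction, 1031 bins of 40-fold H3K4me3 or more had H3K27me3 under 0.5-fold, against 9237 for the product. Of the strong H3K4me3 bins, 26.2% had H3K27me3 below the library mean, against 70.1% of all bins. Of the strong H3K27me3 bins, 15.8% had H3K4me3 below its mean, against 80.9% of all bins. H3K4me3 reached 2-fold or more in 61.3% (60.5 to 62.1) of strong H3K27me3 bins, against 6.24% of all bins, and in 56.6% without the bins high in all 4 libraries. That share was 31.2% where strong H3K27me3 was set at 5-fold and 88.7% at 20-fold. Both H3K9me3 libraries were raised in strong H3K27me3 bins too. MEF H3K9me3 was at 2-fold or more in 92.4% of them, against 12.9% of all bins. The secondary MEF library was so in 81.7%, against 17% of all bins. H3K27me3 reached 2-fold or more in 50.0% of strong H3K4me3 bins, against 13.4% of all bins. In strong H3K4me3 bins the H3K9me3 shares were 46.3% in MEF and 73.0% in secondary MEF. How far such common signal enters these shares was not tested.

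Along the scale of H3K4me3 height, H3K27me3 was highest at intermediate H3K4me3 and not in the highest peaks. Without the bins high in all 4 libraries, mean H3K27me3 was 0.697-fold where H3K4me3 was under 0.5-fold, 2.12-fold at 2-fold to 5-fold H3K4me3, 3.07-fold (3.05 to 3.09) at 10-fold to 20-fold, and 2.73-fold (2.71 to 2.74) at 40-fold or more. The share of bins strong for H3K27me3 turned over more sharply. It was 0.0420% in the lowest class, 2.23% at 2-fold to 5-fold, 6.90% at 10-fold to 20-fold, 5.58% at 20-fold to 40-fold and 1.29% in the 16627 bins of 40-fold or more. The median went the other way at the top, from 1.78-fold at 10-fold to 20-fold H3K4me3 to 2.22-fold at 40-fold or more, and 60.1% of the highest H3K4me3 bins had H3K27me3 of 2-fold or more. The highest H3K4me3 bins thus had a modest H3K27me3 level in most bins and few bins with a strong one.

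Both H3K9me3 libraries were also raised in the highest H3K4me3 bins. MEF H3K9me3 was 1.87-fold at 10-fold to 20-fold H3K4me3 and 2.76-fold at 40-fold or more. In secondary MEF H3K9me3 the means were 2.40-fold and 4.34-fold, and 91.5% of the highest H3K4me3 bins were at 2-fold or more, against 17% of all bins. For MEF H3K9me3 that share was 64.0%, against 12.9% of all bins. The ratio of mean H3K27me3 to mean MEF H3K9me3, a quantity chosen after its values were seen, was 1.13 at 2-fold to 5-fold H3K4me3, 1.64 (1.63 to 1.66) at 10-fold to 20-fold, 1.46 at 20-fold to 40-fold and 0.989 (0.980 to 0.997) at 40-fold or more. With the bins high in all 4 libraries kept, the last ratio was 1.04 (1.03 to 1.04). Against secondary MEF H3K9me3 it was 1.28 at 10-fold to 20-fold and 0.629 at 40-fold or more. In the highest H3K4me3 bins, H3K27me3 reads were therefore about as frequent as reads of MEF H3K9me3, and the part of this common signal in the H3K27me3 values was not tested.

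**Figure D1:**
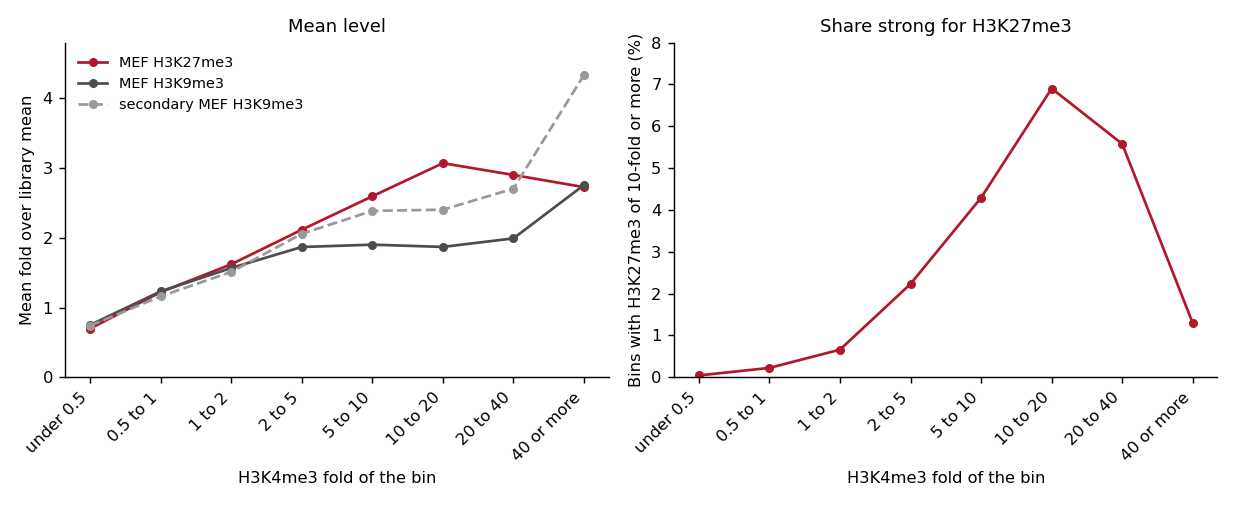
Mean level of MEF H3K27me3, MEF H3K9me3 and secondary MEF H3K9me3 (left, fold over the library mean) and the share of bins with H3K27me3 of 10-fold or more (right, %) by class of H3K4me3 fold, without bins of 5-fold or more in all 4 libraries; points are means or shares over bins of 1 library each. H3K27me3 peaks at 10-fold to 20-fold H3K4me3 (3.07-fold, 6.90% strong), while both H3K9me3 libraries are highest at 40-fold or more.

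Read from the H3K27me3 side, H3K4me3 increased with H3K27me3 over the whole scale. Without the bins high in all 4 libraries, mean H3K4me3 was 0.422-fold where H3K27me3 was under 0.5-fold, 1.42-fold at 1-fold to 2-fold, 3.37-fold at 5-fold to 10-fold, 5.81-fold (5.78 to 5.83) at 10-fold to 20-fold and 8.13-fold (8.06 to 8.21) at 20-fold to 40-fold. Strong H3K4me3 was found in 6.20%, 16.1% and 27.2% of the last 3 classes. Median H3K4me3 in those classes was 1.09-fold, 2.18-fold and 4.35-fold, so the increase was not carried by a few peaks alone. MEF H3K9me3 increased over the same classes as well, with means of 2.89-fold, 4.27-fold and 6.27-fold. No upper turn was seen for H3K4me3, unlike H3K27me3 along the H3K4me3 scale, although only 22 bins had H3K27me3 of 40-fold or more.

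Around strong H3K4me3, H3K27me3 formed a low shoulder and not a trough. Each bin was assigned to its distance from the nearest strong H3K4me3 bin. Mean H3K27me3 was 3.38-fold (3.37 to 3.39) in the strong bins themselves, 2.45-fold at 0.5 kb, 1.99-fold at 1 kb and 1.61-fold at 2 kb. From 2 to 5 kb it averaged 1.47-fold (1.47 to 1.48), from 10.5 to 20 kb 1.28-fold, from 30.5 to 50 kb 1.19-fold, and beyond 50 kb 0.730-fold. The share of strong H3K27me3 bins was 6.64% at distance 0, 5.24% at 0.5 kb, 0.811% from 2 to 5 kb and 0.0893% beyond 50 kb. Without the bins high in all 4 libraries the means at 0 and 0.5 kb were 2.91-fold and 2.33-fold. Medians, which move in single-read steps, were lower: 1.78-fold in the strong bins, 1.33-fold at 0.5 kb, 0.889-fold from 1 to 50 kb and 0.445-fold beyond. Bins under 1-fold were 26.2% at distance 0, 48.0% at 0.5 kb and 50.5% at 1 kb. They were 57.7% from 5.5 to 10 kb, 62.2% from 30.5 to 50 kb and 78.3% beyond. The shoulder in the mean thus held a small shift over many bins besides the minority of strong ones.

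The H3K9me3 libraries had a narrower shoulder at the same positions. MEF H3K9me3 stood at 2.46-fold in the strong H3K4me3 bins and 1.45-fold at 0.5 kb, and secondary MEF H3K9me3 at 3.39-fold and 1.70-fold. The ratio of H3K27me3 to MEF H3K9me3 was 1.37 in the strong bins, 1.69 at 0.5 kb, 1.48 at 1 kb, 1.15 from 2 to 5 kb, 1.02 from 30.5 to 50 kb and 0.893 beyond 50 kb. Against secondary MEF H3K9me3 it was 0.9995 in the strong bins, 1.45 at 0.5 kb and 1.16 from 2 to 5 kb. Relative to each H3K9me3 library, H3K27me3 was thus highest in the bin next to strong H3K4me3 and lower inside it.

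Around strong H3K27me3, H3K4me3 was high in the centre and had a shallow minimum a few kb away. Mean H3K4me3 was 7.83-fold in the strong H3K27me3 bins, with a median of 2.90-fold, and 3.59-fold at 0.5 kb, 2.24-fold at 1 kb and 1.53-fold at 1.5 kb. The lowest mean within 50 kb was 1.14-fold, at 2.5 kb. The average from 2 to 5 kb was 1.20-fold (1.19 to 1.20), against 1.28-fold from 5.5 to 10 kb, 1.43-fold from 10.5 to 20 kb, 1.54-fold from 30.5 to 50 kb and 0.885-fold beyond. The share of strong H3K4me3 bins followed the same course, at 1.39% from 2 to 5 kb, 2.00% from 10.5 to 20 kb and 2.23% from 30.5 to 50 kb. With strong H3K4me3 bins left out, H3K4me3 was 0.732-fold from 2 to 5 kb and 0.725-fold from 30.5 to 50 kb, so the minimum lay in the frequency of strong peaks and not in the level between them. Neither H3K9me3 library had such a minimum: MEF H3K9me3 averaged 1.74-fold from 2 to 5 kb and 1.27-fold from 30.5 to 50 kb, and secondary MEF H3K9me3 1.34-fold and 1.23-fold. These profiles kept the bins high in all 4 libraries. Without them, H3K4me3 from 2 to 5 kb was again 1.20-fold. In the centre it was then lower, at 5.81-fold in bins of 10-fold to 20-fold H3K27me3 and 8.13-fold in those of 20-fold to 40-fold.

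**Figure D2:**
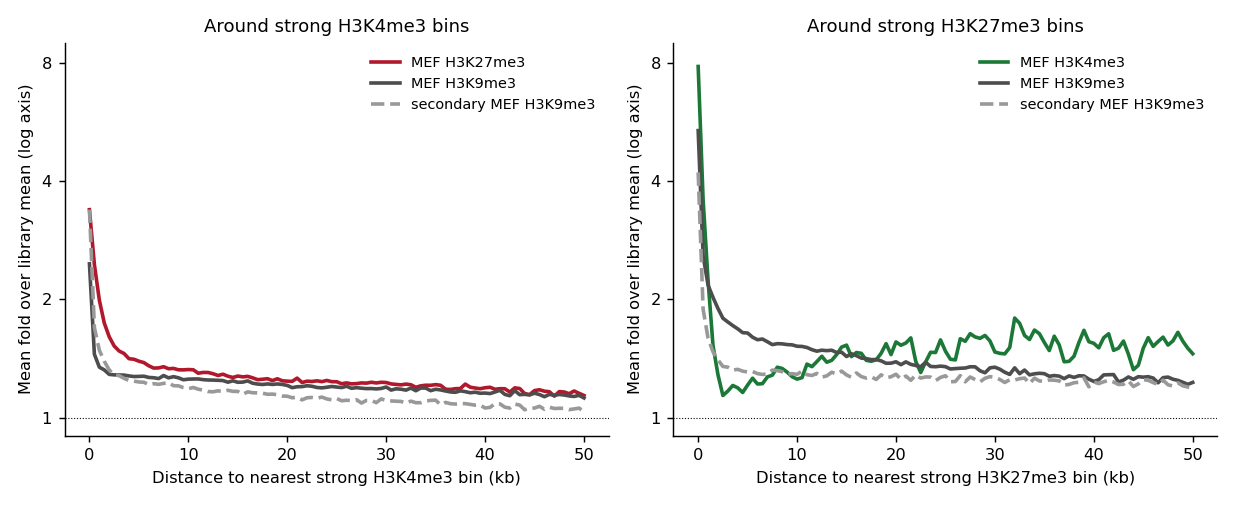
Mean fold over the library mean (log axis) by distance to the nearest strong H3K4me3 bin (left) or strong H3K27me3 bin (right), in kb, 1 line per library. H3K27me3 declines from 3.38-fold to 1.19-fold around strong H3K4me3, while H3K4me3 around strong H3K27me3 declines from 7.83-fold to a minimum of 1.14-fold at 2.5 kb and is higher again further out.

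A larger share of strong H3K27me3 bins lay near strong H3K4me3 than the reverse, but strong H3K4me3 bins were also more numerous (51770 against 14792). All bins likewise lay nearer to strong H3K4me3 than to strong H3K27me3, so each share stands beside its own share of all bins. Of strong H3K27me3 bins, 35.5% had a strong H3K4me3 bin within 0.5 kb, 56.4% (55.6 to 57.2) within 5 kb and 85.7% within 50 kb. For all bins these shares were 2.17%, 8.63% and 40.5%. The median distance was 2.5 kb, against 79.5 kb for all bins. Without the bins high in all 4 libraries 47.0% lay within 5 kb and the median was 7 kb. Of strong H3K4me3 bins, 11.8% had strong H3K27me3 within 5 kb and 31.1% within 50 kb, against 2.62% and 14.7% of all bins. The median distance was 115 kb, against 326.5 kb for all bins. Without the bins high in all 4 libraries these shares were 9.26% and 28.4%, against 2.46% and 14.0% of all bins. The median was then 127.5 kb, against 352.5 kb.

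The strong bins formed 18048 H3K4me3 runs with a median length of 1000 bp and 7547 H3K27me3 runs with a median of 500 bp. Runs of H3K4me3 that held a strong H3K27me3 bin numbered 2287 (12.7%). Their median highest bin was 23.9-fold, and 5.73% of them reached 2500 bp. The 11911 runs (66.0%) with no strong H3K27me3 within 50 kb had a median highest bin of 48.2-fold, and 17.5% reached 2500 bp. The shared runs without bins high in all 4 libraries numbered 1357 (8.06%), with 22.1-fold and 5.31%, and the far runs 11728, with 47.5-fold and 17.3%. H3K4me3 runs shared with H3K27me3 were therefore lower and less often long than those far from it. H3K27me3 runs showed the opposite order. The 2327 (30.8%) that held a strong H3K4me3 bin had a median length of 1000 bp and a median highest bin of 17.3-fold, and the 1193 (15.8%) over 50 kb from strong H3K4me3 had medians of 500 bp and 12.9-fold. After runs holding such bins were left out, 1384 shared runs (21.8%) had medians of 1000 bp and 15.1-fold, and 1135 far runs 500 bp and 12.9-fold. A longer run has more bins in which strong H3K4me3 can fall, so this sorting by itself favours long runs. The median highest bin was therefore also read at equal width, with against without strong H3K4me3 inside. It was 12.4-fold against 11.6-fold at 500 bp and 17.8-fold against 15.6-fold at 1000 to 2000 bp. At 2500 bp or more it was 24.5-fold in both.

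H3K27me3 beside H3K4me3 runs depended on the height of the run. Without runs that held a bin high in all 4 libraries, the 4923 runs whose highest H3K4me3 bin was 10-fold to 20-fold had mean H3K27me3 of 4.36-fold inside, 2.56-fold at 0.5 to 1 kb from the edges, 1.83-fold at 2 to 5 kb and 1.53-fold at 20 to 50 kb. In the 2970 runs of 20-fold to 40-fold these levels were 4.02, 2.24, 1.63 and 1.40-fold. In the 6184 runs of 40-fold to 80-fold they were 2.24, 1.20, 1.16 and 1.30-fold. In the 2758 runs of 80-fold or more they were 2.08, 0.982, 1.06 and 1.39-fold. The tallest H3K4me3 peaks thus stood in a local minimum of H3K27me3 that lay beside the peak and not in it, while runs under 40-fold had most H3K27me3 nearest to them. Inside the runs of 80-fold or more, MEF H3K9me3 averaged 2.26-fold, and the part of such common signal in their H3K27me3 was not tested.

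The ratio of H3K27me3 at 0.5 to 1 kb to that at 20 to 50 kb, chosen after its values were seen, was 1.68 for runs of 10-fold to 20-fold, 1.60 at 20-fold to 40-fold, 0.925 at 40-fold to 80-fold and 0.707 at 80-fold or more. With all runs kept it was 0.735 at 80-fold or more, but 1.02 at 40-fold to 80-fold, where the direction turned. Without runs holding bins high in all 4 libraries, the ratio in the highest class was under 1 on 19 of 19 autosomes, from 0.618 to 0.898, and at 40-fold to 80-fold on 15 of 19, from 0.845 to 1.17. In the lowest class it was above 1 on all 19, from 1.45 to 1.84. Autosomes describe the spread within these libraries and are not replicates. In the highest class the same ratio of H3K9me3 was 0.798 in MEF and 1.01 in secondary MEF, so a dip beside the tallest peaks was also present, though smaller, in 1 of the 2 H3K9me3 libraries. The part of such common signal in the H3K27me3 ratio was not tested.

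**Figure D3:**
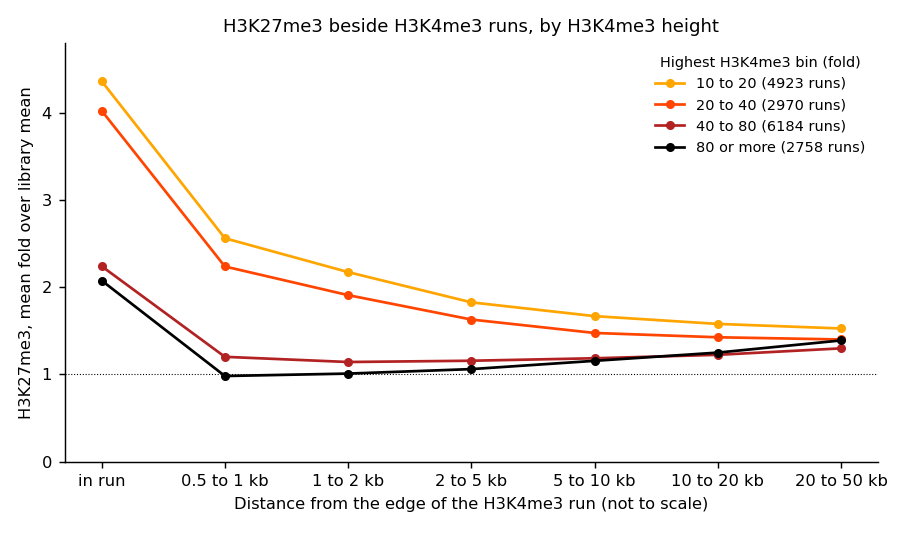
Mean MEF H3K27me3 (fold over the library mean) inside strong H3K4me3 runs and by distance from their edges (classes in kb, not to scale), 1 line per class of the highest H3K4me3 bin in the run, without runs holding a bin high in all 4 libraries. Runs of 10-fold to 20-fold decline from 4.36-fold inside to 1.53-fold at 20 to 50 kb, and runs of 80-fold or more have their lowest level, 0.982-fold, at 0.5 to 1 kb.

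Width gave the same order as height. Mean H3K27me3 in the run was 4.53-fold in runs of a single bin and 1.84-fold in the 182 runs of 5000 bp or more, without runs holding a bin high in all 4 libraries. All runs, grouped by their own H3K27me3 level, showed the spread behind these means, and since the groups were formed from H3K27me3 their in-run values are a description only. The largest group, 6867 runs (38.0%), had 2-fold to 5-fold H3K27me3, and 5807 runs (32.2%) had 1-fold to 2-fold. Another 614 runs (3.40%) were under 0.5-fold, and 1830 (10.1%) were at 10-fold or more, of which 1042 held no bin high in all 4 libraries. The last group had a median highest H3K4me3 bin of 21.0-fold, against 57.3-fold in the group of 1-fold to 2-fold. Its H3K27me3 was 7.52-fold at 0.5 to 1 kb, 3.97-fold at 2 to 5 kb and 1.94-fold at 20 to 50 kb, so these runs sat on H3K27me3 hills several kb wide. In the 1042 runs the highest H3K4me3 bin had a median of 18.5-fold, and H3K27me3 was 7.44-fold, 3.91-fold and 1.94-fold at those distances.

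At 100 bp resolution the hill of H3K27me3 was wider than the H3K4me3 run on it. Edges were aligned for 11983 runs of at least 1000 bp without a bin high in all 4 libraries. Over all of them, mean H3K4me3 was 42.2-fold at 500 bp inside the edge, 7.19-fold in the first 100 bp outside, 2.40-fold at 500 bp outside and 1.23-fold at 2000 bp. H3K27me3 was 3.10-fold, 1.91-fold, 1.50-fold and 1.28-fold at the same positions. In the 460 runs with 10-fold or more H3K27me3, H3K4me3 was 29.6-fold, 6.32-fold, 1.75-fold and 1.09-fold, while H3K27me3 was 15.9-fold, 11.6-fold, 6.93-fold and 4.22-fold and still 3.31-fold at 4500 bp. In those runs H3K4me3 had come close to its library mean at 2 kb, where H3K27me3 was about 4 times its own. In the 4842 runs of 1-fold to 2-fold, H3K27me3 was 1.69-fold inside, 0.994-fold in the first 100 bp outside and 0.917-fold at 500 bp. MEF H3K9me3 took a like course there, at 2.03-fold, 0.955-fold and 0.920-fold. The part of such common signal in the H3K27me3 values was not tested. In the 194 runs under 0.5-fold, H3K27me3 was 0.378-fold inside and 0.694-fold just outside. This was the reverse order, as far as runs chosen for low H3K27me3 can show it.

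**Figure D4:**
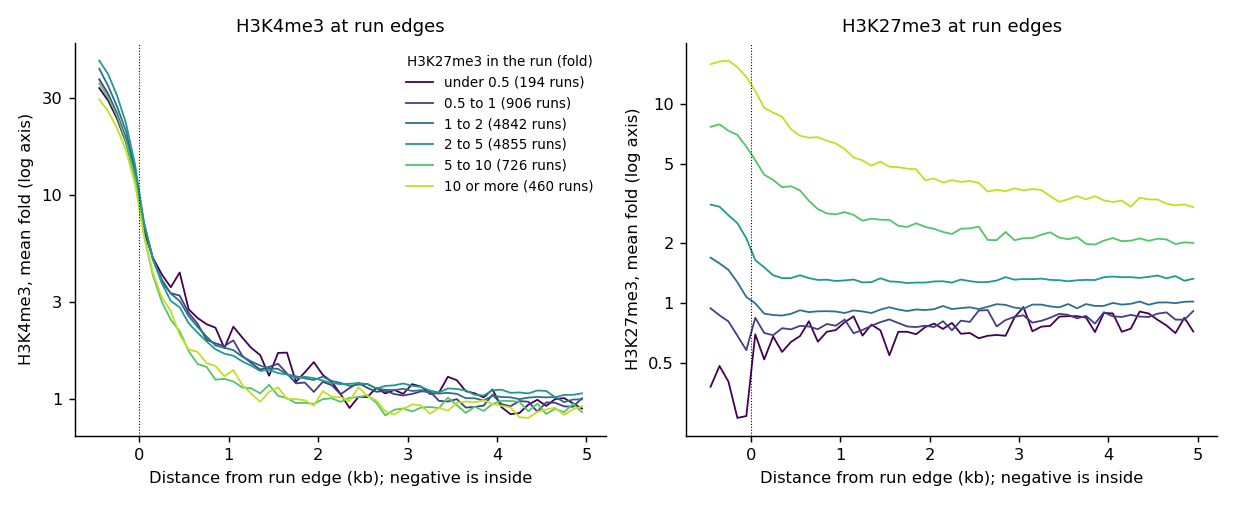
Mean H3K4me3 (left) and H3K27me3 (right), fold over the library mean on log axes, in 100 bp steps from the edges of H3K4me3 runs of at least 1000 bp, 1 line per class of H3K27me3 in the run; negative distances are inside. Edges were set by the 10-fold H3K4me3 threshold, so H3K4me3 declines there in every class by construction. H3K27me3 in the class of 10-fold or more, chosen for its level in the run, declines from 15.9-fold inside to 3.31-fold at 4500 bp.

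Exclusion of H3K27me3 from H3K4me3 runs inside H3K27me3 domains was uncommon. For each run, H3K27me3 per bin was compared with that in both flanks together, from 0.5 to 3 kb beyond each edge, where the flanks reached 5-fold or more. A notch was a ratio under 0.5 and a peak a ratio of 2 or more, with a Clopper-Pearson interval that excluded 1. Strong bins of the run's own mark were left out of its flanks, and no bin was left out of the flanks of windows. Of 1012 H3K4me3 runs with such flanks, 29 (2.87%) were notched, against 24.3% of all windows of 1000 bp with such flanks. Peaks numbered 556 (54.9%), against 6.01% of windows. The median ratio of run to flank was 2.09, with quartiles of 1.49 and 2.91. Without runs holding bins high in all 4 libraries, 639 runs gave 28 notches (4.38%), 268 peaks (41.9%) and a median ratio of 1.83. In H3K27me3 domains, H3K4me3 runs were thus local maxima of H3K27me3 more often than windows with such flanks were.

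Local maxima at H3K4me3 runs were also found for H3K9me3, at lower shares. With flanks of 2-fold or more, which the H3K9me3 libraries reach often enough, 3785 runs gave 62 H3K27me3 notches against 15.1% of windows, and 1976 peaks (52.2%) against 4.79%. Of 2640 runs with MEF H3K9me3 flanks of that level, 23.0% were peaks, against 2.15% of windows. In secondary MEF the H3K9me3 share was 19.4% of 3023 runs, against 2.73% of windows. Without runs holding bins high in all 4 libraries the H3K27me3 share was 43.0%, and those of H3K9me3 were 11.8% in MEF and 13.9% in secondary MEF. The part of the common signal in the H3K27me3 peaks was not tested.

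Notches made up a larger share of tall and wide H3K4me3 runs than of low and narrow ones. Without runs holding bins high in all 4 libraries, 9 of 400 runs (2.25%) of 10-fold to 20-fold were notched, 3 of 174 (1.72%) of 20-fold to 40-fold, and 16 of 65 (24.6%) of 40-fold or more. The last share is near the 24.3% of all windows, but those were 1000 bp long and kept bins high in all 4 libraries. Runs of 40-fold to 80-fold and of 80-fold or more had median widths of 1500 and 2000 bp. Width and filter thus differed, and nothing is drawn from the nearness. With all runs kept the share was 16 of 106 (15.1%), below that of windows, with 35.8% peaks and a median ratio of 1.44. With the runs holding such bins left out again, peaks were 43.5%, 48.3% and 15.4% of these 3 classes, all above the 6.01% of windows, and the median ratio in the tallest class was 1.03. By width, 10 of 377 single-bin runs (2.65%), 11 of 218 runs of 1000 to 1500 bp (5.05%) and 7 of 44 runs of 2000 bp or more (15.9%) were notched, the last falling to 7.61% with all runs kept.

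The reverse comparison, H3K4me3 across H3K27me3 runs, gave more notches. Of 464 H3K27me3 runs with H3K4me3 flanks of 5-fold or more, 121 (26.1%) had H3K4me3 under 0.5 of the flanks, against 72.6% of windows of 500 bp, and 181 (39.0%) were H3K4me3 peaks, against 11.2% of windows. Without runs holding bins high in all 4 libraries the shares were 30.1% and 33.7% of 362 runs. H3K4me3 was thus less often depleted across H3K27me3 runs than across windows of 500 bp with such flanks. Among the 4957 H3K27me3 runs with no strong H3K4me3 bin and no bin high in all 4 libraries, H3K4me3 was 2.28-fold inside, 1.36-fold at 0.5 to 1 kb and 1.18-fold at 2 to 5 kb. In the 167 of these that were 2500 bp or longer it was 2.18-fold, 0.918-fold and 0.797-fold. H3K27me3 runs below the H3K4me3 threshold were therefore, on average, still small local maxima of H3K4me3. Both H3K9me3 libraries were also higher in the median H3K27me3 run than beside it. With flanks of 2-fold or more, median ratios of run to flank were 1.70 for MEF H3K9me3, 1.46 for secondary MEF H3K9me3 and 1.91 for H3K4me3. Without runs holding bins high in all 4 libraries they were 1.61, 1.29 and 1.26. The part of this common signal in the H3K4me3 values was not tested.

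H3K4me3 runs were seldom borders of H3K27me3 domains. Flanks at 2 to 5 kb could be read on both sides of 16515 runs without a bin high in all 4 libraries. At least 1 flank reached 5-fold at 748 runs (4.53%), against 2.28% of all windows, and both did at 156 (0.945%), against 0.345%. Of the 748 runs, 64 (8.56%) had the other flank under 1-fold, against 10.2% of windows with a flank of 5-fold. Among the 436 runs whose flank at lower coordinates was 5-fold or more, median H3K27me3 was 11.5-fold in the run and 3.37-fold in the opposite flank, and 6.88% of the opposite flanks were under 1-fold. Such borders were 0.388% of all runs, against 0.233% of all windows. With a flank of 2-fold or more and the other under 1-fold they were 6.55% of runs against 3.04% of windows, and 24.6% of the 4398 runs with such a flank against 19.4% of windows. Sharp changes of H3K27me3 across an H3K4me3 run were thus uncommon, but more frequent than across windows in general, except as a share of those with a 5-fold flank. Around H3K27me3 runs, 64.1% of 448 with an H3K4me3 flank of 5-fold had the other flank under 1-fold, against 66.7% of windows.

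The main patterns held on nearly every autosome, which again describes spread within the libraries. H3K27me3 in strong H3K4me3 bins ranged from 2.88-fold on chromosome 16 to 3.89-fold on chromosome 17, and was above that at 2 to 5 kb on 19 of 19 autosomes. The share of strong H3K27me3 within 5 kb of strong H3K4me3 ranged from 44.4% on chromosome 4 to 69.9% on chromosome 16, above the share of all bins on 19 of 19. H3K4me3 at 2 to 5 kb from strong H3K27me3 was below that at 30.5 to 50 kb on 18 of 19. The number of bins strong for both marks was 9.31 times the product on chromosome 19 and 18.4 times on the median autosome.

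Single positions showed each arrangement, and were chosen by rank outside bins high in all 4 libraries and outside chromosome 18, so "highest" and "widest" below refer to the other 18 autosomes. The highest H3K4me3 run spanned chr11:29071501-29074000 and reached 159.9-fold. Its mean H3K4me3 was 69.4-fold (65.1 to 73.9) from 957 reads, and its mean H3K27me3 was 1.96-fold (1.23 to 2.96) from 22 reads. At 2 to 5 kb from its edges H3K27me3 was 0.534-fold on the lower side and 0.296-fold on the higher side. MEF H3K9me3 in the run was 2.71-fold and secondary MEF H3K9me3 5.81-fold. The next 4, on chromosomes 3, 6, 1 and 14, had highest bins of 144-fold to 149-fold and mean H3K27me3 of 2.07-fold to 3.41-fold. All 5 had H3K27me3 under 1-fold in both flanks from 0.5 to 3 kb. The class of 80-fold or more, without runs holding a bin high in all 4 libraries, averaged under 1-fold only nearest to the run. Its means were 0.982-fold at 0.5 to 1 kb, 1.01-fold at 1 to 2 kb and 1.06-fold at 2 to 5 kb.

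The run with the highest H3K27me3 bin by this rule spanned 6500 bp at chr11:119361001-119367500. It reached 50.2-fold, where the highest bin of all autosomes outside those high in all 4 libraries was 53.4-fold, with a mean of 26.1-fold (24.3 to 28.0) from 763 reads. H3K4me3 averaged 8.54-fold and reached 25.02-fold within it, and was under 2-fold in both flanks (0.725 and 1.74-fold). The bin with the highest smaller fold of both marks was chr2:119017501-119018000, with 34.8-fold H3K4me3 (28.2 to 42.5) from 96 reads and 47.1-fold H3K27me3 (38.6 to 57.0) from 106 reads. Its H3K27me3 flanks stood at 19.2-fold and 16.1-fold and its H3K4me3 flanks at 2.25-fold and 3.12-fold. It lay inside a 9000 bp H3K27me3 run, chr2:119012001-119021000, that averaged 20.5-fold H3K27me3. Bins on chromosomes 10, 4 and 9 had a like form, with H3K27me3 flanks from 4.53-fold to 16.5-fold.

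A bin at chr3:156497501-156498000 differed in form. It held 33.4-fold H3K4me3 (92 reads) and 33.8-fold H3K27me3 (76 reads), but H3K27me3 was only 2.58-fold and 1.96-fold in its flanks, so H3K27me3 was focal there. H3K4me3 was not, with flanks of 16.5-fold on the lower side and 0.218-fold on the higher side. MEF H3K9me3 was 7.47-fold in the bin and secondary MEF H3K9me3 2.60-fold.

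The notched runs with the highest flanks took more than one form. At chr12:58463001-58464500, H3K27me3 was 6.52-fold (4.74 to 8.75) in a run of 11.6-fold H3K4me3, between flanks of 17.5-fold and 12.3-fold. At chr12:104874001-104874500 it was 3.11-fold (1.25 to 6.41) from 7 reads, between flanks of 13.1-fold and 11.2-fold, with H3K4me3 at 22.1-fold. At a single bin on chromosome 1 it was 4-fold, from 9 reads, between flanks of 10.4-fold and 16.1-fold. The remaining pair was asymmetric. At chr4:152986001-152987000, with H3K4me3 at 40.3-fold, H3K27me3 was 28.6-fold on the lower side, 3.11-fold in the run and 1.24-fold on the higher side. At chr2:25396001-25398000, with H3K4me3 at 38.8-fold, it was 0.800-fold on the lower side, 2.56-fold in the run and 23.3-fold on the higher side. In these last runs the flank ratio counted as a notch while H3K27me3 stepped from one side to the other.

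The widest H3K4me3 run by this rule spanned 11500 bp, chr2:117801001-117812500, at a mean of 24.3-fold, with H3K27me3 of 1.51-fold (1.19 to 1.88) inside and 0.534-fold and 1.60-fold in the flanks. The next 4, of 9000 to 10500 bp on chromosomes 11, 17, 9 and 7, had mean H3K27me3 of 1.38-fold to 1.84-fold. Their MEF H3K9me3 means, 1.92-fold to 2.78-fold, were higher in each. At the opposite end, 1135 H3K27me3 runs without a bin high in all 4 libraries lay over 50 kb from strong H3K4me3. The highest spanned chr11:95730001-95732000 with 25.01-fold H3K27me3 (21.8 to 28.5), and H3K4me3 was 3.17-fold (2.21 to 4.41) inside against 0.290-fold and 0.508-fold in the flanks. At chr19:45279501-45284000, H3K27me3 averaged 20.7-fold and H3K4me3 1.57-fold (1.12 to 2.15), with H3K4me3 flanks of 1.96-fold and 2.25-fold. The first had an H3K4me3 maximum below the strong level under its H3K27me3 peak. Beside the second, H3K27me3 was still 21.3-fold and 17.3-fold in the flanks. Those flanks therefore could not show whether H3K4me3 had a maximum in that H3K27me3 domain, and the highest H3K4me3 bin of the run was 4.71-fold. MEF H3K9me3 was 6.77-fold in the first run and 5.29-fold in the second, and secondary MEF H3K9me3 2.60-fold and 4.09-fold.

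**Figure D5:**
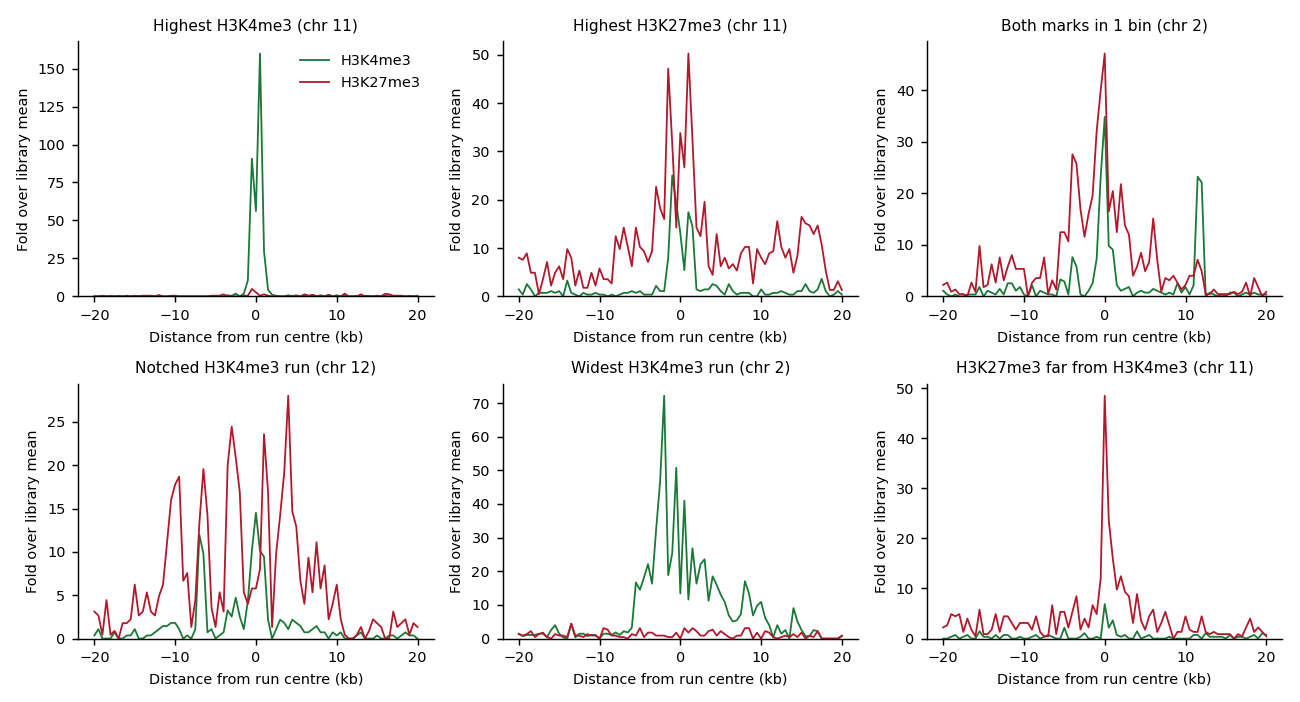
H3K4me3 and H3K27me3 (fold over the library mean, 500 bp bins) by distance in kb from the centre of 6 named positions, with a separate vertical scale in each panel. H3K27me3 stays low around the 159.9-fold H3K4me3 peak, both marks peak together on chromosome 2, and H3K27me3 dips at the H3K4me3 run on chromosome 12.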

How the data were processed

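Each deposited file lists where reads aligned, as a position whose sign gives the strand; these are other than a level and carry no normalisation by the authors. According to their headers, alignment was done with Bowtie against mm8 (-e 70, -k 2, -m 2, -n 2, -l 36, best hits, concise output), per the file headers, and the version is not given in the sources used here. Per the labels, chromatin averaged 500 bp, and libraries had 18 PCR cycles and were cut from a gel between 150 and 350 bp. Input libraries were not used here.

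Reads with 1 location were used, and a read length of 36 bases was assumed to place minus strand reads. Those with 2 locations and chromosomes X and Y were left out. Of autosomal reads, 91.4% (H3K4me3) and 93.8% (H3K27me3) were at distinct positions. A fold has an exact Poisson interval, and a share or a ratio of reads a Clopper-Pearson interval. No test between libraries was possible with 1 per group. Members, thresholds and lists were chosen with earlier results of these data known. The named positions were the 5 highest runs of each mark, the 5 bins with the highest smaller fold, the 5 notched runs with the highest flanks, the 5 widest H3K4me3 runs and the 5 highest H3K27me3 runs over 50 kb from strong H3K4me3, without bins high in all 4 libraries and without chromosome 18. The notch rule was tested on simulated data: with run over flank at 0.25, 98% of 200 runs were called notched, and at a ratio of 1 none was called. Simulated runs lay far from other runs, with flanks even on both sides and above the 5-fold minimum. The share called therefore does not hold for shallower notches, flanks at the minimum or flanks high on 1 side. Alternatives covered bin width, repeated reads, thresholds, bins high in all 4 libraries, depth, read shift and the flank rule. Python 3.11.15, numpy 2.4.6, scipy 1.17.1 and matplotlib 3.10.9 were used.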

Additional observations from a re-analysis of the deposited data

How the results depend on the processing

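No paired analysis was possible because each group held 1 library. The values below are in the order H3K27me3 in strong H3K4me3 bins (3.38-fold), H3K27me3 at 2 to 5 kb from them (1.47-fold), strong H3K27me3 bins with H3K4me3 of 2-fold or more (61.3%), H3K4me3 at 2 to 5 kb from strong H3K27me3 (1.20-fold) and strong H3K27me3 within 5 kb of strong H3K4me3 (56.4%). Bins of 250 bp gave 3.11, 1.36, 56.9%, 1.02 and 59.0%, and bins of 1000 bp gave 3.35, 1.54, 64.5%, 1.31 and 49.5%. A strong level of 5-fold gave 3.18, 1.44, 31.2%, 1.24 and 47.5%, and one of 20-fold gave 3.25, 1.37, 88.7%, 1.34 and 40.8%. Counting every read gave 3.54, 1.47, 54.6%, 1.17 and 53.1%. Without bins high in all 4 libraries they were 2.91, 1.44, 56.6%, 1.20 and 47.0%. Thinning H3K4me3 to the H3K27me3 depth gave 3.37 and 1.48 for the first and second, beyond their counting error. Bins strong for both marks numbered 1927 at 1000 bp, 11403 at 5-fold and 474 at 20-fold. Notched H3K4me3 runs numbered from 22 to 62, the last with flanks of 2-fold or more. The H3K27me3 ratio beside runs of 80-fold or more (0.735) was 0.750 with 1000 bp bins, whose near flank was 1 to 2 kb, 0.749 with strong at 20-fold and 0.717 without bins high in all 4 libraries. H3K27me3 over MEF H3K9me3 at 40-fold H3K4me3 or more (1.04) was 1.01 with 1000 bp bins, 1.02 with every read and 0.989 without bins high in all 4 libraries, where it turned below 1. The cause of these shifts was not tested. A read shift of 100 bp moved none of these values beyond its own interval, or, for counts, by over 1.5 times. At 2 to 3 reads a bin, single bins under the strong level are not resolved.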
